A study of Mus musculus with 12 samples.

Results

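The genes described here are 8 members of the Bcl2 family, chosen by name and placed at their mm10 positions, out of 21887 protein-coding genes in the RefSeq table. They are the survival genes Bcl2, Bcl2l1, Bcl2l2 and Mcl1, the death effector Bak1 and the BH3-only death genes Bid, Bmf and Bcl2l11. For each gene, the bases under peaks of 2 histone marks were counted within 5 kb of the gene span in each of 8 peak lists. The lists came from bone marrow cells sorted as lineage-negative and cKit-positive, a fraction rich in blood stem and progenitor cells, from C57BL/6 mice. The KO group was Mx1Cre+ Ints11 flox/fox (spelled as in the labels) and the WT group was made up of littermates, with 2 mice per genotype. Cells of both groups were sorted 4 days after poly(I:C), which switches on Mx1Cre through the interferon response and so deletes Ints11, a subunit of the Integrator complex. Mx1Cre acts in every cell that responds to interferon, and the labels do not say whether the WT mice carried it. The libraries are named KO_399, KO_401, WT_407 and WT_409 after the numbers in the titles, which are read here as mice, and each mouse gave 1 list for H3K4me3 and 1 for H3K27me3.

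Proteins of the Bcl2 family decide whether the outer membrane of the mitochondrion is opened in apoptosis. The survival members bind and hold the other classes, the effectors form the pores, and the BH3-only members sense stress and release or activate the effectors. Blood stem and progenitor cells of the mouse depend on Mcl1, and Bcl2l11 (Bim) sets their death after cytokine loss. H3K4me3 marks active and poised promoters, and H3K27me3 is the mark of Polycomb silencing. Both marks together at a promoter are called bivalent.

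The promoters that the results turn on are given here as the 200 bases before the annotated start, 5′ to 3′ on the strand of the gene, from RefSeq (GRCm38.p6, the assembly of mm10). Capitals mark every CG, the dinucleotide of CpG islands, where H3K4me3 is mostly found. The first pair belongs to the genes where both marks shared bases in more than 1 library, the next pair to the outermost and innermost starts of Bcl2l1, and the last to the gene with the longest H3K4me3 peak of the 8.
Bmf, chr2:118549687-118549886, minus strand: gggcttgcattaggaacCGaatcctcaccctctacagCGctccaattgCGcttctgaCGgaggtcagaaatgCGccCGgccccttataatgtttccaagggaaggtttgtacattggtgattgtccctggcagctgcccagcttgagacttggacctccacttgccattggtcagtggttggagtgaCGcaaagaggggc
Bcl2l11, chr2:128125838-128126037, plus strand: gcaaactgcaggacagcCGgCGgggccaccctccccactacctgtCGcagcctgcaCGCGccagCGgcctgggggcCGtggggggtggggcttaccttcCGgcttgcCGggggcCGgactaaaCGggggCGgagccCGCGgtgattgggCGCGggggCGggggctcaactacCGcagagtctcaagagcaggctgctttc
Bcl2l1 outermost start, chr2:152831729-152831928, minus strand: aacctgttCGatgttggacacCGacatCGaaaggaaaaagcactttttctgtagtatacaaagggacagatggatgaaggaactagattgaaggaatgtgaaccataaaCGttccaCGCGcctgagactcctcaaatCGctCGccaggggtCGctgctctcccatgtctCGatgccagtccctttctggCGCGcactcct
Bcl2l1 innermost start, chr2:152828490-152828689, minus strand: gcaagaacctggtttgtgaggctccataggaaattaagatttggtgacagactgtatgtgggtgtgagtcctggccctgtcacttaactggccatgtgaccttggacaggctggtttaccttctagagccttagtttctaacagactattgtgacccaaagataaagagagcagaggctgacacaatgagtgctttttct
Mcl1, chr3:95658521-95658720, plus strand: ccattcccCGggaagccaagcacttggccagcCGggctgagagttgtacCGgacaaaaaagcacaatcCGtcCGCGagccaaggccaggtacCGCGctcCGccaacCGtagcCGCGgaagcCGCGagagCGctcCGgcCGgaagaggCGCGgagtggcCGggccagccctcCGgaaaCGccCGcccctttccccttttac

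The motif CG was found in 91.3% of the 21263 promoters of this length, with a median of 8, and reads the same on both strands. Mcl1 held 23, Bcl2l11 18 at its first start, Bmf 7 at its outermost start, and Bcl2l1 12 at its outermost and none at its innermost start. All 8 genes matched the promoter table, with 13 annotated starts between them.

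The H3K4me3 lists held 27676 and 25090 peaks in KO_399 and KO_401 and 25145 and 26279 in WT_407 and WT_409, and the H3K27me3 lists 6542 and 7653 in KO and 11930 and 9838 in WT. Every listed peak had a fold over background above 5, as deposited by the authors, so a site without a listed peak may still carry the mark below that fold. KO_399 had the most background reads per position of the H3K4me3 libraries (2.65, against 1.93 in KO_401, 2.23 in WT_407 and 1.94 in WT_409). For H3K27me3 they were 3.3 and 3.67 in KO_399 and KO_401 and 3.09 and 3.15 in WT_407 and WT_409. The labelled cell type was checked by H3K4me3 near marker genes: all 10 stem and progenitor markers had it in every library. WT_409 stood apart, with 23261 bp summed over 5 B cell markers (17385 and 9435 bp in KO_399 and KO_401, 8427 bp in WT_407) and H3K4me3 at 5 of 5 erythroid markers (1 of 5 in each of the other libraries). Its summed length at 5 neutrophil markers was 45413 bp, against 39507 and 34529 bp in KO_399 and KO_401 and 24384 bp in WT_407. Of 5 T and NK cell markers, Bcl11b, Cd3e and Klrb1c were at 0 in all 4 libraries, while Cd3d and Lck had H3K4me3 in each. The sum over the 5 was 4500 and 3586 bp in KO_399 and KO_401 and 3408 and 4033 bp in WT_407 and WT_409. Summed lengths over stromal and endothelial markers were highest in KO_399 (6659 and 10866 bp). The sum over stem and progenitor markers was highest there too (90886 bp, against 74487 bp in KO_401 and 69683 and 73420 bp in WT_407 and WT_409). The part that other cell types had in the values below was not tested. A shorter covered length from a mixed population can come from fewer marked cells or from less mark per cell, which cannot be told apart.

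All 8 genes carried H3K4me3 over at least 1 annotated start in all 4 libraries, as did 55.1% of the 17492 genes with an annotated start. Within 5 kb of the gene span, 64.3% of all 21887 genes had the mark in all 4 libraries. By the widest H3K4me3 peak over a start, Mcl1 and Bcl2l11 stood at the top. Mcl1, whose protein is short-lived and keeps progenitors alive, had a peak of 7231 and 6415 bp in KO_399 and KO_401 and of 6238 and 6224 bp in WT_407 and WT_409. The peak of Bcl2l11, the gene of the BH3-only protein Bim, was 6171 and 6059 bp wide in KO_399 and KO_401 and 5876 and 6084 bp in WT_407 and WT_409. Their mean widths stood at percentiles 98.6 and 97.9 among the 9636 genes with such a peak in all 4 libraries, whose median was 2202 bp. Bak1, Bcl2, Bid and Bcl2l1 followed with means over the 4 libraries of 3684, 3609, 3494 and 3472 bp, and these neighbours lay within their spread (SD 295, 340, 162 and 821 bp, n = 4). Bmf (2132 ± 591 bp) and Bcl2l2 (1477 ± 234 bp, SD, n = 4 each) had the narrowest, with Bcl2l2 at percentile 19.4. The widest peak was wider in both KO libraries than in either WT library at 3 of the 8 genes, Mcl1, Bcl2l1 and Bmf, against 26.0% of the 9636 genes. At Bmf the KO_401 width of 3012 bp, which also enters its mean, is that of a peak joined over the outermost and middle starts. The other libraries listed separate peaks there.

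**Figure D1:**
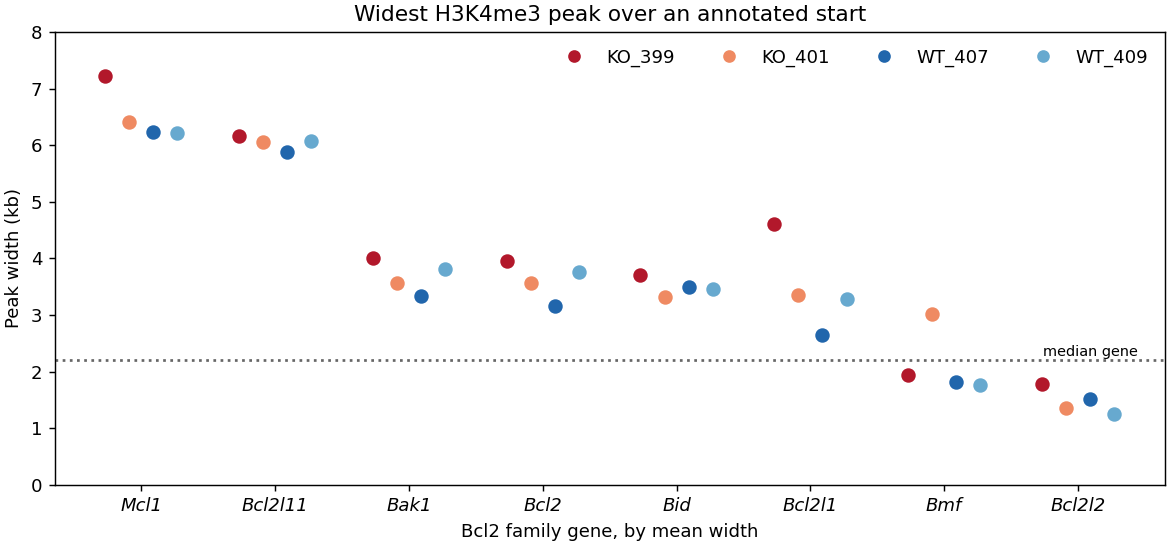
Width of the widest H3K4me3 peak over an annotated start (y axis, kb) for each gene (x axis, ordered by mean width), 1 point per library, KO libraries left of WT libraries. The dotted line is the median of the 9636 genes with such a peak in all libraries, and only Bmf in 3 libraries and Bcl2l2 in all 4 lie below it.

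The peaks were not centred on the starts. At Mcl1 the peak reached 1184 and 1096 bp upstream and 6046 and 5318 bp downstream in KO_399 and KO_401, and 1066 and 1114 bp upstream and 5171 and 5109 bp downstream in WT_407 and WT_409. It therefore covered the start and ran past the end of this short gene in each library. Bcl2l11 was the one gene whose peak over the first start reached farther upstream than downstream in every library. It reached 3393 and 3438 bp upstream of the first start in KO_399 and KO_401 and 3406 and 3410 bp in WT_407 and WT_409, with 2777 and 2620 bp downstream in KO and 2469 and 2673 bp in WT. The upstream edges of the KO libraries lay on both sides of those of WT. At Bak1, the pore-forming effector, the upstream reach was 385 and 455 bp in KO and 342 and 343 bp in WT, and a start of the neighbour Ggnbp1 lies 632 bp from that of Bak1.

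The comparison of KO with WT asked whether the loss of Ints11 changed H3K4me3 at these genes. At 5 of the 8 genes (Bcl2l1, Bcl2l2, Mcl1, Bak1 and Bmf) each KO library had a longer covered length within 5 kb than either WT library, and at none was it shorter in both. Over the 15167 genes with H3K4me3 in any library, 22.1% were longer in both KO libraries and 3.63% shorter. The 5 margins were small: the lower KO library exceeded the higher WT library by 172 bp at Bcl2l1, 35 bp at Bak1, 19 bp at Bmf, 8 bp at Bcl2l2 and 1 bp at Mcl1. KO_399 was the longest of the 4 libraries at all 8 genes, as it was at 72.4% of genes with H3K4me3, and its background of 2.65 reads was the highest of the 4. Leaving out a library can add such calls but cannot undo one, so the same 5 genes stayed higher without KO_399. Bcl2 and Bid were then lower in KO_401 than in both WT libraries, and without KO_401 all 8 were higher. The share of all genes was not counted with a library left out. Within 2 kb of the annotated starts, a region chosen after seeing the data, 3 genes were higher in both KO libraries and 1 was lower. The higher ones were Bcl2, Bcl2l1 and Bak1 and the lower one Bid. Of 10980 genes, 23.4% were higher and 4.06% lower. The margins were 379 bp at Bcl2l1, 42 bp at Bak1 and 2 bp at Bcl2. Bid had 3056 and 2977 bp in KO_399 and KO_401 and 3059 and 3064 bp in WT_407 and WT_409. At Bcl2, Bak1 and Bid the peak ran past 2 kb downstream in every library, so these calls rest on its upstream reach.

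The median difference between KO and WT means was 145.2 bp over the 8 genes and 128.5 bp over all genes with the mark. Summed over the 8 genes, H3K4me3 covered 46047 and 39162 bp in KO_399 and KO_401 and 37380 and 38823 bp in WT_407 and WT_409. The sum was 112% of WT in KO, and the mean over all protein-coding genes was 108%. Without KO_399 these were 103% and 98.2%. With 2 libraries per genotype there are 6 labelings, and the smallest p of a two-sided exact permutation test is 0.333. In 12 such tests, 1 per gene and mark found, 6 reached that value, so none could pass a threshold of 0.05. Each p-value is the share of the 6 labelings with a difference of means at least as large, and it covers these libraries only.

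**Figure D2:**
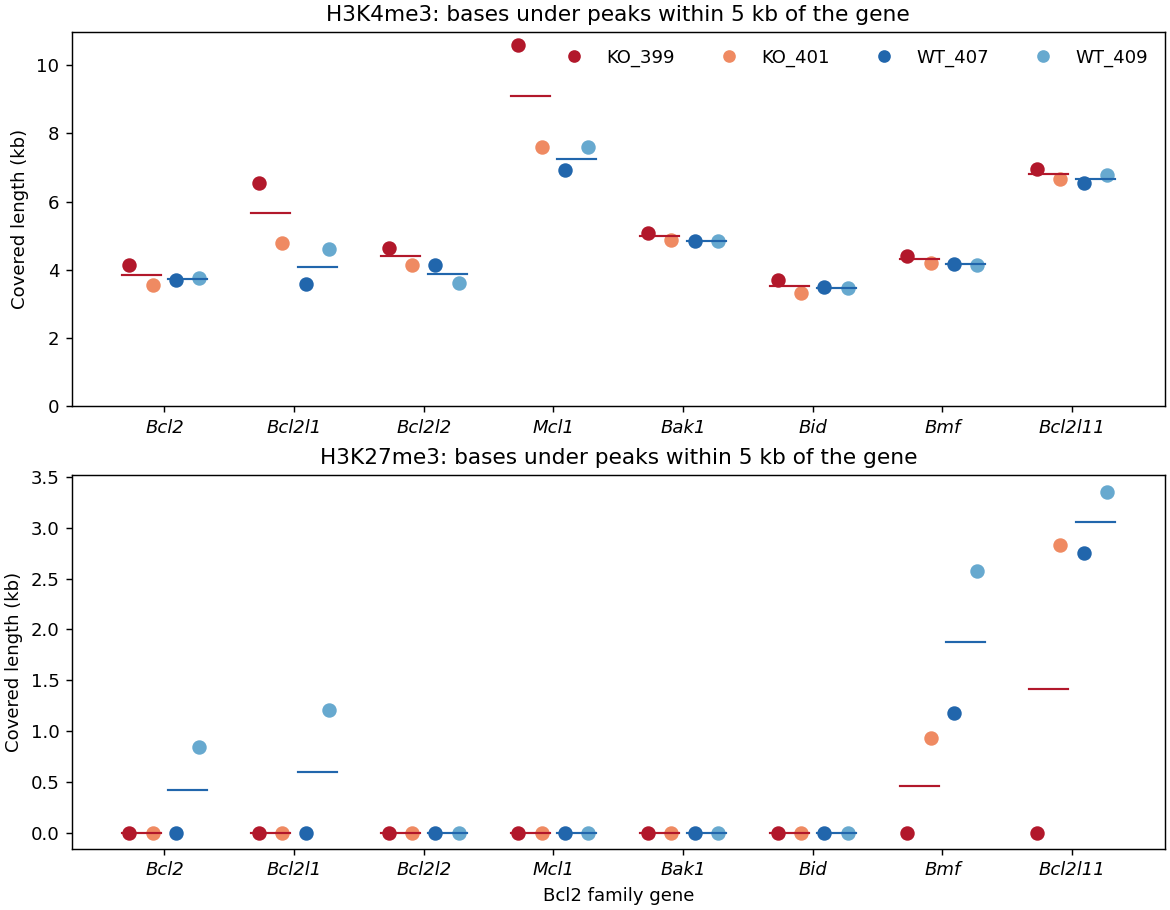
Bases under H3K4me3 peaks (top) and H3K27me3 peaks (bottom) within 5 kb of each gene (y axis, kb), 1 point per library, with KO libraries left of WT libraries and a line at the mean of each genotype. KO_399 is the highest point for H3K4me3 at each gene, and H3K27me3 lies at 0 in all libraries for Bcl2l2, Mcl1, Bak1 and Bid.

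Among the survival genes, Bcl2l1 had the widest gap between the KO and WT libraries. It encodes Bcl-xL, which erythroid precursors need to survive, and lies on chromosome 2 from 152758732 to 152833803 (mm10). Its H3K4me3 covered 6541 and 4788 bp within 5 kb in KO_399 and KO_401, against 3571 and 4616 bp in WT_407 and WT_409. Both KO libraries were longer than both WT libraries, and the difference of means was 1571 bp (5664.5 ± 1240 bp in KO and 4093.5 ± 738.9 bp in WT, SD, n = 2 each, exact permutation p = 0.333). It stood at percentile 98.4 of all genes with H3K4me3, and was 694.5 bp without KO_399 and 2447.5 bp without KO_401. The promoter peak ended 4354 and 3095 bp from the outermost start in KO_399 and KO_401, and 2536 and 3099 bp in WT_407 and WT_409, so KO_401 and WT_409 were alike on that side. The upstream side reached 249 and 257 bp in KO and 103 and 191 bp in WT. In KO_401 a separate peak of 317 bp followed the promoter peak, and KO_399 and WT_409 had 2 and 1 small peaks of their own farther inside the gene. The outermost and middle starts lay under the peak in all 4 libraries, but the innermost start, whose 200 bases hold no CG, lay under it in KO_399 alone. Bcl2l1 was longer in every KO library than in every WT library under each of the 12 alternatives tried, though those that left out a library could not undo this. Windows of 2 kb and 10 kb and leaving out bases nearer to another gene changed none of its values, so they added no check. A second region inside the gene span had a peak of 1335 and 1118 bp in KO_399 and KO_401 and of 931 and 1126 bp in WT_407 and WT_409, and KO and WT overlapped there.

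Mcl1, on chromosome 3 from 95656944 to 95663179, had the largest difference of the 8. H3K4me3 covered 10596 and 7596 bp within 5 kb in KO_399 and KO_401, against 6914 and 7595 bp in WT_407 and WT_409. These are 65.3% and 46.8% of the window in KO and 42.6% and 46.8% in WT, the highest shares among the 8 genes. KO_399 stood far above the others, and KO_401 and WT_409 differed by 1 bp, so the difference of means of 1841.5 bp (exact permutation p = 0.333) rests on KO_399. It was 341.5 bp without KO_399 and 3341.5 bp without KO_401. An upstream region held peaks from -7908 to -5751 bp of the start in KO_399 and from -7891 to -6380 bp in KO_401, which reached into the window. The WT peaks there ended before the window, at -7072 bp in WT_407 and -6871 bp in WT_409. Downstream, a region beginning 8692 bp from the start in KO_399 reached into the window with 767 bp. WT_409 had 662 bp there, while the nearest peaks of KO_401 and WT_407 began at 9659 and 9718 bp, beyond the window. Within 10 kb of the gene Mcl1 covered 14566 and 10211 bp in KO and 9197 and 10208 bp in WT. Within 2 kb of the start the libraries were close, at 3185 and 3097 bp in KO and 3067 and 3115 bp in WT, and the groups overlapped. The peak ran past 2 kb downstream in every library, so these values differ only by its upstream reach and cannot show a difference farther downstream.

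**Figure D3:**
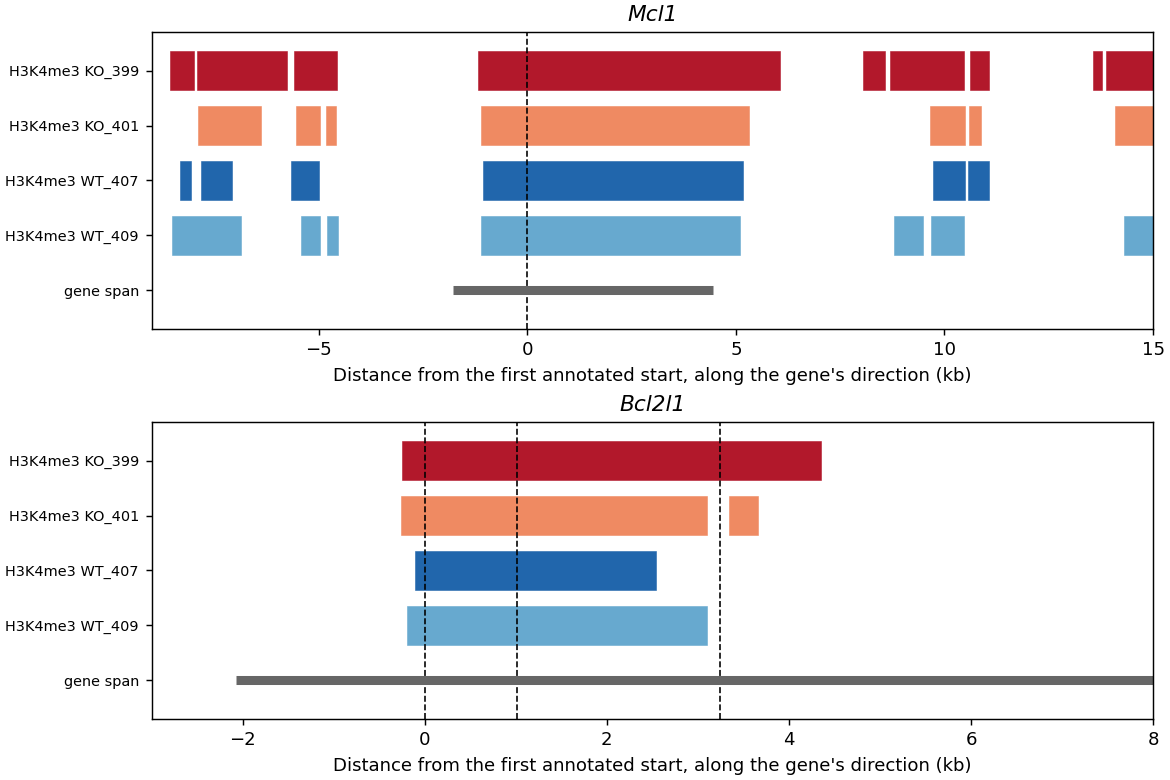
H3K4me3 peaks (bars) at Mcl1 and Bcl2l1 in each library, KO above WT, by distance in kb from the first annotated start along the direction of the gene (x axis); dashed lines are annotated starts and the grey bar is the gene span. The Mcl1 peak runs from upstream of the annotated start past the downstream end of the gene span in all 4 libraries, and at Bcl2l1 only the KO_399 peak covers the innermost start.

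Of the other survival genes, Bcl2 overlapped between KO and WT and Bcl2l2 did not. Bcl2, the founding member, which guards lymphocytes and is a target of cancer drugs, spans chromosome 1 from 106538176 to 106714290. It had 4137 and 3561 bp of H3K4me3 in KO_399 and KO_401 and 3710 and 3755 bp in WT_407 and WT_409, and the KO libraries lay on both sides of WT. The promoter peak reached 3070 and 2543 bp downstream of the start in KO_399 and KO_401 and 2304 and 2868 bp in WT_407 and WT_409. In WT_407 a separate peak of 548 bp followed it, from 2461 to 3008 bp. Bcl2l2, which encodes Bcl-w, spans chromosome 14 from 54883366 to 54890858. It had 4647 and 4147 bp in KO_399 and KO_401 and 4139 and 3626 bp in WT_407 and WT_409. The difference of means was 514.5 bp, at percentile 84.7 of all genes with H3K4me3, and was 264.5 bp without KO_399 and 258 bp without WT_409. Its window also holds the start of the neighbour Pabpn1, and peaks nearest to that start gave most of the covered length. They covered 2862 and 2786 bp of the window in KO_399 and KO_401, 814 and 1807 bp as separate peaks in WT_407, and 2382 bp in WT_409. The 514.5 bp and its percentile therefore take in both genes. The peak over the start of Bcl2l2 itself was 1785 and 1361 bp wide in KO and 1518 and 1244 bp in WT, where the groups overlapped. The groups overlapped for Bcl2l2 as well when bases nearer to another gene were left out and with windows of 2 kb and 10 kb.

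Bak1, on chromosome 17 from 27019812 to 27028627, lies wholly inside the span of Ggnbp1 in the annotation. It had 5065 and 4887 bp in KO_399 and KO_401 and 4840 and 4852 bp in WT_407 and WT_409. Both KO libraries were higher, by a difference of means of 130 bp, which stood at percentile 50.2 of all genes with H3K4me3. The difference was 41 bp without KO_399 and 219 bp without KO_401. The groups overlapped with a window of 10 kb and with peaks of a fold of at least 10, and no base was left when those nearer to another gene were left out. A peak of 1052 and 908 bp in KO and of 1016 and 1035 bp in WT at the far end of the window lay over the other annotated start of Ggnbp1. Within 2 kb of its own start Bak1 had 2386 and 2456 bp in KO and 2343 and 2344 bp in WT.

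The differences of means in H3K4me3 at the BH3-only genes were 39 bp at Bid, 142.5 bp at Bmf and 148 bp at Bcl2l11. Bid, on chromosome 6 from 120893119 to 120917062, is cut by the caspase of death receptors and carries their signal to the mitochondrion. It had a single peak of 3709 and 3318 bp in KO_399 and KO_401 and of 3496 and 3453 bp in WT_407 and WT_409, and KO lay on both sides of WT. Bmf, on chromosome 2 from 118528757 to 118549686, responds to loss of attachment and cytoskeletal stress. It had 4413 and 4197 bp in KO and 4178 and 4147 bp in WT, a ratio of means of 1.03. The difference of 142.5 bp was 34.5 bp without KO_399 and 250.5 bp without KO_401, and the groups overlapped with windows of 2 kb and 10 kb. Each of the 3 annotated starts of Bmf lay under H3K4me3 in all 4 libraries. In KO_401 the peaks over the outermost and middle starts were joined into 1 of 3012 bp, while KO_399, WT_407 and WT_409 had 1940, 1809 and 1766 bp over the outermost start alone. A further peak upstream of Bmf, 1390 and 1393 bp wide in KO and 1314 and 1363 bp in WT, had no annotated start within 4 kb of its summit. Bcl2l11, on chromosome 2 from 128126038 to 128162547, had 6939 and 6668 bp in KO and 6532 and 6779 bp in WT, and the groups overlapped. A second peak inside Bcl2l11, about 11 kb from the first start, was 768 and 609 bp wide in KO and 656 and 695 bp in WT.

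Counted as regions merged over the libraries, the windows of the 8 genes held 22 H3K4me3 regions, of which 17 had a peak in all 4 libraries. Of the others, 4 had a peak in KO_399 alone and 1 in WT_409 alone, and none was shared by the KO pair alone or by the WT pair alone. Over the genome, 2.04% of regions were in the KO pair alone and 1.01% in the WT pair alone. Of the genome-wide total, 65.7% of 30534 H3K4me3 regions were in all 4 libraries, 7.05% in KO_399 alone and 4.56% in WT_409 alone.

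**Figure D4:**
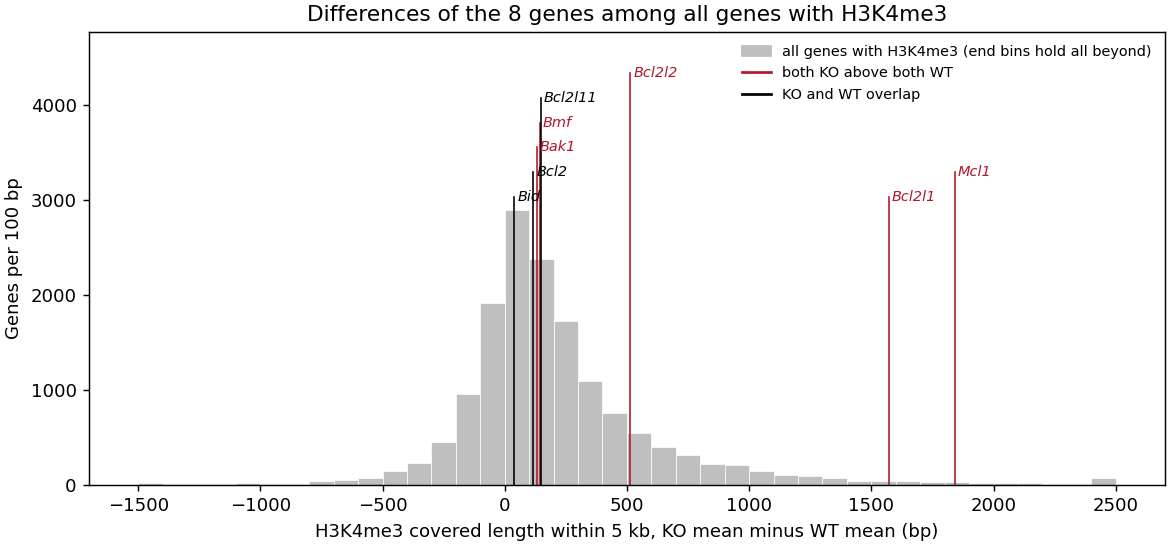
Number of genes (y axis, per 100 bp) by the difference in H3K4me3 covered length within 5 kb, KO mean minus WT mean (x axis, bp), for all 15167 genes with H3K4me3. Vertical lines are the 8 genes, red where both KO libraries exceed both WT libraries. Bcl2l1 (1571 bp) and Mcl1 (1841.5 bp) lie in the right tail, and the other 6 between 39 and 514.5 bp.

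The same comparison for H3K27me3 concerned few of these genes. Bcl2l2, Mcl1, Bak1 and Bid had no H3K27me3 peak within 5 kb in any library, and none of the 8 had one in all 4 libraries, as 19.0% of all genes did. With 4 of 8 genes marked in any library, the share was set against 29.8% of all genes and 32.5% of the 14067 genes with H3K4me3 in all 4 libraries. Bmf and Bcl2l11, both BH3-only genes, had it in KO_401 and both WT libraries and lacked it in KO_399. Bcl2 and Bcl2l1 had 1 peak each in WT_409 alone. At 1 of these 4 genes, Bmf, each KO library had a shorter covered length than either WT library, and at none a longer one, against 70.0% and 0.0154% of the 6512 genes with H3K27me3. Leaving out a library can only add such calls, and the share of all genes was not counted in that setting. Without KO_401, Bcl2l11 was lower as well, and without WT_407 all 4 were lower. At Bcl2 and Bcl2l1 that call rests on the peak of WT_409 alone.

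Bmf had no H3K27me3 in KO_399 and 936 bp in KO_401, against 1185 and 2570 bp in WT_407 and WT_409. Both KO libraries were below both WT libraries (468 ± 661.9 bp in KO and 1877.5 ± 979.3 bp in WT, SD, n = 2 each, exact permutation p = 0.333). The difference of -1409.5 bp was close to the median of -1356 bp over all genes with the mark, and was -717 bp without WT_409. Ranked by the authors' −log10 q within each list, the Bmf peak stood at percentile 39.0 in KO_401, and at 39.4 in WT_407 and 64.5 in WT_409. The call ended when each list was given the same number of peaks, since the peak of WT_407 was then left out, and when only peaks with a fold of at least 10 were kept, which left WT_409 alone. The peaks spanned the outermost start in each library that had one. H3K4me3 lay over the same bases: 936 bp in KO_401, 1185 bp in WT_407 and 1766 bp in WT_409 were covered by both marks, which is 100%, 100% and 68.7% of the H3K27me3 there.

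Bcl2l11 had no H3K27me3 in KO_399 and 2829 bp in KO_401, against 2754 and 3351 bp in WT_407 and WT_409. KO_401 lay between the WT libraries, so the groups overlapped (exact permutation p = 0.667), and the difference of means of -1638 bp was -223.5 bp without KO_399. The peaks did not reach the start. They ran from -3249 to -421 bp of the first start in KO_401, from -3154 to -401 bp in WT_407 and from -3735 to -385 bp in WT_409. That is the upstream arm of the H3K4me3 peak, and both marks covered 2829 bp in KO_401, 2754 bp in WT_407 and 3026 bp in WT_409. KO_399, where H3K27me3 was not listed, had the H3K4me3 arm as well. These bases also lie inside the span of the neighbour Acoxl, whose end overlaps the start of Bcl2l11. At 72.8% of genes with H3K27me3, KO_399 had less of it than each of the other libraries, and its list was the shortest. Within 2 kb of the starts, both Bmf and Bcl2l11 were lower in both KO libraries, against 55.4% of 3826 genes lower and 0.0523% higher. Bcl2l11 had 0 and 1580 bp there in KO_399 and KO_401 and 1600 and 1616 bp in WT_407 and WT_409. Its peaks ran past 2 kb upstream in each library that had one. The place of KO_401 below WT therefore rests on the end nearest the start, while its whole peak was longer than that of WT_407.

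**Figure D5:**
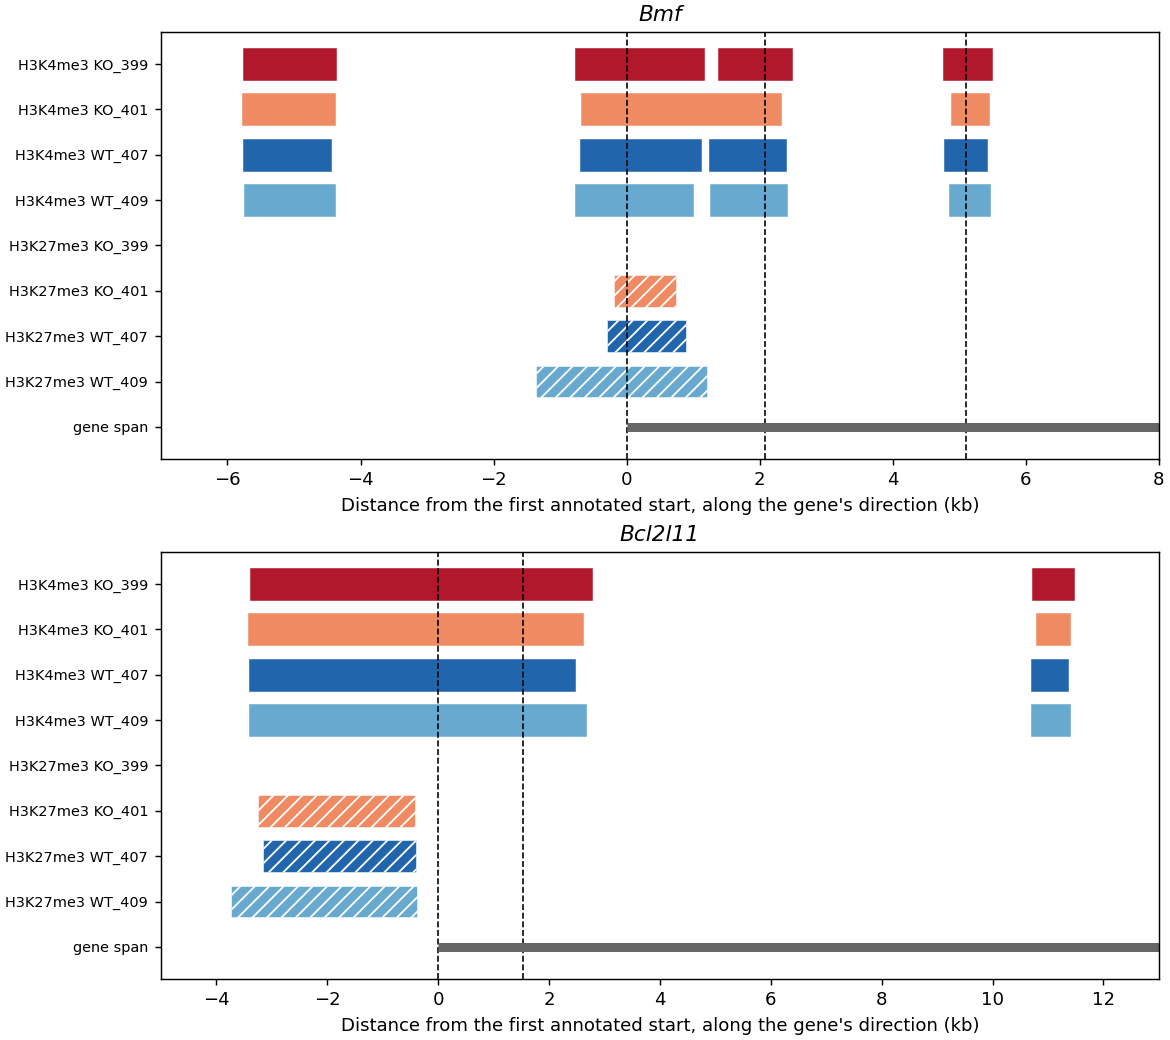
Peaks of H3K4me3 (plain bars) and H3K27me3 (hatched bars) at Bmf and Bcl2l11 in each library, KO above WT for each mark, by distance in kb from the first annotated start along the direction of the gene (x axis); dashed lines are annotated starts and the grey bar is the gene span. H3K27me3 lies across the outermost start of Bmf and upstream of that of Bcl2l11 in KO_401, WT_407 and WT_409, and KO_399 has none.

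The peaks of WT_409 at Bcl2 and Bcl2l1 were weak. That at Bcl2 was 848 bp wide, lay 1099 to 1946 bp downstream of the start, inside the H3K4me3 peak, and stood at percentile 33.9 of its list by −log10 q. That at Bcl2l1 gave 1208 bp near the other end of the gene, 76789 to 78233 bp from the outermost start, overlapped one end of the neighbour Cox4i2, and stood at percentile 15.7. In all, 2 of the 4 H3K27me3 regions near the 8 genes were in WT_409 alone, 2 in KO_401 and both WT libraries, and none in the WT pair alone or in all 4. Over the genome, 12.4% of 12219 H3K27me3 regions were in the WT pair alone, 35.9% in all 4, and 10.4% in WT_409 alone, the library that also had the most H3K4me3 at B cell and erythroid markers; the part of other cell types in these 2 peaks was not tested. Summed over the 8 genes, H3K27me3 covered 0 and 3765 bp in KO_399 and KO_401 and 3939 and 7977 bp in WT_407 and WT_409. That is 31.6% of WT in KO, where the mean over all genes was 61.5%. The gap between the 8 genes and all genes narrowed without KO_399 but did not close, at 63.2% against 73.6%. The sums of KO_401 (3765 bp) and WT_407 (3939 bp) were close. That of WT_409 (7977 bp) was far above both and included the peaks at Bcl2 and Bcl2l1 found in it alone. Without KO_401 the 8 genes were at 0% and all genes at 49.4%. These shares were 23.6% and 63.2% without WT_407 and 47.8% and 59.9% without WT_409. The median difference over the 4 genes with the mark was -1007 bp, less than that of all genes with it.

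Of 55 other apoptosis genes, 53 had H3K4me3 in any library, and 15 of them (28.3%) were higher in both KO libraries and 1 (1.89%) lower, close to the 22.1% and 3.63% of all genes. The 17 other Bcl2 family genes gave 4 higher and none lower, the mitochondrial death machinery 7 of 17 higher, the death receptor arm 3 of 8, and the regulators of the family 1 of 12 higher and 1 lower. Bax, the effector that shares its role with Bak1, had 7219 and 6663 bp in KO_399 and KO_401 and 6175 and 6193 bp in WT_407 and WT_409. Birc3, an inhibitor of apoptosis protein, had 4773 and 3586 bp in KO and 3554 and 3393 bp in WT, and Bad, a BH3-only gene, had 5802 and 5573 bp in KO and 5402 and 5103 bp in WT. The gene that was lower was Mapk8, a stress kinase, with 1596 and 1597 bp in KO and 1840 and 1967 bp in WT.

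H3K27me3 lay near 11 of the 55 genes, and 8 of the 11 (72.7%) were lower in both KO libraries and none higher, near the 70.0% of all genes with the mark. The other Bcl2 family genes with it were Bbc3, Bik, Bok, Hrk and Pmaip1, of which 4 were lower. The BH3-only gene Hrk had 7588 and 8966 bp in KO_399 and KO_401 and 13797 and 11264 bp in WT_407 and WT_409. Trp73, a relative of p53, had 5550 and 10511 bp in KO and 14263 and 12025 bp in WT. Pmaip1, the BH3-only gene of Noxa, had 0 and 530 bp in KO and 2120 and 3689 bp in WT. Hrk, Trp73 and Pmaip1 were picked for the largest differences among those genes whose KO and WT libraries did not overlap.

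The protein-coding genes most like Mcl1 over the 8 libraries of both marks, by the lowest mean absolute difference in covered length within 5 kb, were Sla (98.5 bp), Ikzf1 (112 bp) and Rab8b (119 bp). Ikzf1, the lymphoid factor Ikaros, had 10519 and 7970 bp of H3K4me3 in KO_399 and KO_401 and 7347 and 7611 bp in WT_407 and WT_409, with no H3K27me3. The genes most like Bmf were Mllt3 (243 bp), Rpl17 (244 bp) and Zfp84 (266 bp). Mllt3, a chromatin reader of blood stem cells, had no H3K27me3 in KO_399 and 1351 bp in KO_401, and 1523 and 2689 bp in WT_407 and WT_409, with 4594 and 4532 bp of H3K4me3 in KO and 4562 and 3972 bp in WT.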

How the data were processed

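Chromatin immunoprecipitation with sequencing was done for H3K4me3 and H3K27me3, from formaldehyde-fixed chromatin with 75 bp reads, per the labels' protocols. The submitters' processing notes name Bowtie2 and MACS2 and the build mm10; versions and the control of the peak caller are not given in the sources used here. Of 12 samples the 4 input libraries had no list analysed here. Each of the 8 lists was called on 1 library. Besides positions, the authors deposited for each peak an integer score, a fold of summit pileup over background (a ratio), a −log10 p-value and a −log10 q-value, which were used only within a list.

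Covered bases were counted with Python 3.11.15, NumPy 2.4.6, pandas 2.3.3 and SciPy 1.17.1, from merged peaks within 5 kb of the span in RefSeq GRCm38.p6, with an overlap of 1 bp, and the counting was tested on simulated data. Starts came from the RefSeq promoter table, which gives no exons. Read depth was not part of the lists. Background reads per position were solved from each peak's fold and −log10 p, with 1 added to pileup and background; whole-number pileups met both within 0.001 of −log10 p at 100% of summits. No other depth or precision is known per library. KO and WT were compared by whether their libraries overlap and by a two-sided exact permutation test. The genes and lists were chosen with earlier results of these data known. All 8 genes are named; of the 55 other apoptosis genes, the 3 with the largest non-overlapping difference per mark and direction; and for the gene with the largest such difference per mark, the 3 most alike. Figures were drawn with matplotlib 3.10.9.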

Additional observations from a re-analysis of the deposited data

How the results depend on the processing

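No paired analysis was possible because the KO and WT libraries have different numbers in their titles. The number of the 8 genes with more H3K4me3 in both KO libraries, 5 in the report, was 3 with a window of 2 kb, 2 with a window of 10 kb, 3 with only bases not nearer to another gene and 3 within 2 kb of an annotated start, and from 5 to 8 when each library was left out in turn. It stayed at 4 or 5 with peaks of a fold of at least 10, when the lists were made equal in peak number or in covered length, and with an overlap of at least 200 bp. Bcl2l1 was higher in both KO libraries in all 12 alternatives and Mcl1 in 11. Alternatives that left out a library can add calls for either mark but cannot undo one, so they could not have gone against these genes. The windows of 2 kb and 10 kb changed no H3K4me3 value of Bcl2l1. Leaving out bases nearer to another gene changed none of Bcl2l1 or Mcl1, so these settings added no check there. The number with less H3K27me3 in both KO libraries, 1 in the report, was 2 with a window of 2 kb and within 2 kb of a start. Those settings cut off the part of the Bcl2l11 peaks more than 2 kb upstream of the first start. It was 0 with a fold of at least 10, 0 with the same number of peaks and 0 with the same covered length. In the last setting no peak at Bmf was left in any list. When libraries were left out, the number ran from 1 to 4. The difference KO minus WT of H3K4me3 turned negative without KO_399 at Bcl2 (-171.5 bp, with 404.5 bp as the highest when another library was left out) and at Bid (-156.5 and 234.5 bp), and at Bid within 2 kb of the start (-45 bp); the cause was not tested. Among the other apoptosis genes, from 13 to 43 had more and from 1 to 16 less H3K4me3, and from 2 to 11 less H3K27me3, in both KO libraries; the extremes of 43 and 16 came without KO_401 and without KO_399. The region within 2 kb of a start, the sums without a library and the use of all alternatives on the other apoptosis genes, were chosen after seeing the data. At the background of each H3K27me3 library, a fold of 5 needed 20.5 and 22.4 reads at a summit in KO_399 and KO_401 and 19.5 and 19.8 in WT_407 and WT_409, and the Bmf summit had 32 reads in KO_401 and 25 and 44 in WT_407 and WT_409.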
